A study of Mus musculus with 6 samples.

Results

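The p53 targets of cell death were 10 genes, *Bax*, *Bbc3*, *Pmaip1*, *Fas*, *Tnfrsf10b*, *Eda2r*, *Phlda3*, *Perp*, *Aen* and *Apaf1*, taken from the table by symbol as known p53 targets that promote apoptosis. The rule uses no measured value, but the genes were chosen with earlier results of these data known. They are 10 of the 34573 genes of the count table, and all 10 were among the 14004 genes with enough reads for a test. RNA was sequenced from hematopoietic stem cells (HSCs) of 2 genotypes, *Rpl22*-/- mice, which carry a germline deletion of the ribosomal protein gene *Rpl22*, and *Rpl22*+/+ mice, which carry the intact gene. There were 3 samples of each genotype, from young adult mice of a C57BL/6 background, with no treatment named. The labels give the sort gate as lineage-negative CD48-CD150+ bone marrow cells and do not name Sca-1 or c-Kit, which the study's own definition of these cells includes. They do not say whether the samples of a genotype came from separate mice, so the p-values measure the spread between these samples, which may be partly technical.

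The protein p53 is a transcription factor held at a low level by Mdm2 and stabilized by DNA damage and by stress of ribosome production, in which free ribosomal proteins bind Mdm2. Its targets of cell death act at separate points. Some open the mitochondrial outer membrane or build the caspase-activating complex on released cytochrome c, some are receptors of the tumor necrosis factor family at the cell surface, and others block survival signals, sit in the plasma membrane or degrade nucleic acid. In HSCs, p53 is known for limiting self-renewal and for eliminating cells with damaged DNA.

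Of the 10 genes, 5 rose in *Rpl22*-/- HSCs and 0 fell, at a Benjamini-Hochberg adjusted p of less than 0.05 in the quasi-likelihood test of edgeR, which covered all 14004 genes. At an unadjusted p under 0.05, 6 were higher and 1 was lower, beside 11.6% and 10.7% of all genes tested, which is also the background of the unadjusted counts given for other lists. DESeq2 and limma-voom each called the same 5 genes. These 5 were *Phlda3*, *Eda2r*, *Bbc3*, *Bax* and *Aen*, with log2 fold changes of 3.01, 2.01, 1.02, 0.75 and 0.44. Over all genes tested, 3.28% were called higher and 2.29% lower, which is also the background of edgeR's calls in the other lists. Of all genes called, 58.8% were higher, or 43.4% with scaling by library size alone, and the 5 calls among the p53 targets of cell death were all higher under both scalings. In 6 of the 10 genes every *Rpl22*-/- library lay above every *Rpl22*+/+ library, and in 1, *Perp*, every one lay below, against 13.3% and 13.6% of all genes tested. The median log2 fold change of the 10 genes was 0.60, beside -0.0068 over all genes. In bulk RNA, a change in the share of cells that hold a transcript and a change in the transcript per cell cannot be told apart.

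**Figure D1:**
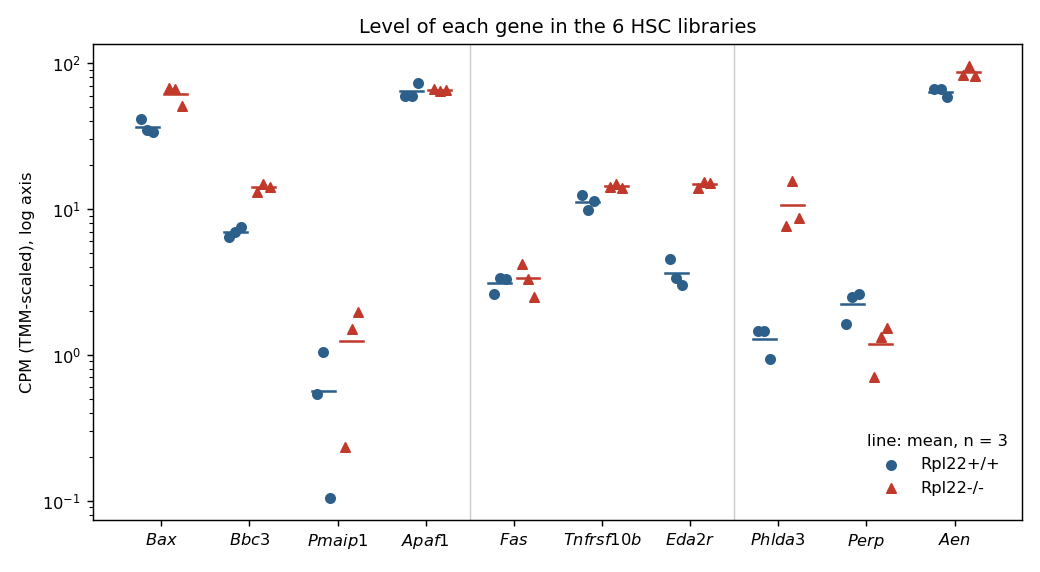
Level of each of the 10 genes in every library, in CPM, the reads of a gene scaled to a common library size by TMM (logarithmic axis), with circles for *Rpl22*+/+, triangles for *Rpl22*-/- and a line at each mean of 3 libraries. Vertical lines part the genes of the mitochondrial pathway, the receptors and the other effectors. All triangles lie above all circles for *Bax*, *Bbc3*, *Tnfrsf10b*, *Eda2r*, *Phlda3* and *Aen*. For *Perp* all triangles lie below all circles, but only narrowly.

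The 6 libraries held between 9321123 and 13385850 reads on genes, fewest in *Rpl22*+/+ replicate 3, and *Rpl22* itself stood at 35.0 to 43.9 CPM in *Rpl22*-/- and at 523 to 562 CPM in *Rpl22*+/+ libraries, as labelled. All 12 HSC markers examined were tested, and their summed level was 2710 to 2980 CPM in *Rpl22*-/- and 2890 to 2960 CPM in *Rpl22*+/+ libraries, with 1 of them, *Fgd5*, lower in *Rpl22*-/- HSCs. The 7 megakaryocyte genes examined summed to 972 to 1240 CPM in *Rpl22*-/- and 701 to 923 CPM in *Rpl22*+/+ libraries, ranges that do not overlap, and *Pf4*, *Itga2b*, *Gp1bb* and *Gp9* passed the test as higher while *Gp6* was at 0. Neutrophil genes summed to 96.5 to 211 CPM and 66.1 to 104 CPM, ranges that overlap, and 1 of the 8 tested, *Camp*, passed as higher. The summed levels of B cell genes, 27.1 to 29.6 CPM and 23.2 to 25.2 CPM, also stood higher in *Rpl22*-/- libraries. Only 2 of the 8 B cell genes were tested, with 0 calls, and *Igll1* and *Ms4a1* were at 0 in all libraries. Endothelial genes summed to 109 to 112 CPM and 89.8 to 107 CPM, again higher in *Rpl22*-/-, with 3 of 5 tested and 0 calls. The sums of T cell, macrophage, erythroid, stromal and CD48 progenitor genes overlapped. The part of these other cell types in the differences below was not tested.

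Promoter sequences were taken from RefSeq (GRCm38.p6) as windows from 250 bases before to 50 bases after each annotated transcription start, and 7 of the 10 genes matched an entry by symbol. The p53 half-site consensus, a 10-letter motif whose complement on the other strand is the same motif, was found for 2 of these 7 genes, *Bax* and *Aen*, against 9.55% of all 27025 genes with a window and 8.36% of all 32851 windows. The *Bax* match begins 201 bases before the start and is preceded, 1 base away, by a second half-site with 1 letter off. That letter is an A where the consensus allows only G, so the core of the second half-site is not intact. The search counted all letters alike. Known sites that p53 binds as a tetramer are 20-letter pairs of half-sites, and whether p53 binds this pair was not tested. Such a pair, with at most 1 letter off in 20 and a gap of at most 13 bases, is in 1 of the 7 genes, against 1.24% of all genes and 1.09% of all windows, and this pair search was added after the first matches were seen. The following lines show the stretch before the start of *Bax*, where the match lies, with those of *Phlda3* and *Eda2r*, the 2 genes with the largest fold changes, in which no half-site was found, and the *Aen* match with 10 bases on either side. Capitals mark the half-site.
*Bax* (chr7:45466899.0-45467148.0, minus strand): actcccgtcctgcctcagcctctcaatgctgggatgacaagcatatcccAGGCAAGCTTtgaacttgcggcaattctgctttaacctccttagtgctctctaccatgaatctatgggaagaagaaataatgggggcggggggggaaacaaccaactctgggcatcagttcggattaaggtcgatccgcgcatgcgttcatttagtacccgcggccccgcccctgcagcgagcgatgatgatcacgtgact
*Phlda3* (chr1:135765835.0-135766084.0, plus strand): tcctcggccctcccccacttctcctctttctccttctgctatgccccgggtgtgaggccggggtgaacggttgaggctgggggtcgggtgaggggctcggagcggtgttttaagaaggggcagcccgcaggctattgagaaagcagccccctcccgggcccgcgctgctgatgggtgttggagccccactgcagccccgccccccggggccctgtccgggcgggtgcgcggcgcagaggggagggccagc
*Eda2r* (chrX:97377217.0-97377459.0, minus strand): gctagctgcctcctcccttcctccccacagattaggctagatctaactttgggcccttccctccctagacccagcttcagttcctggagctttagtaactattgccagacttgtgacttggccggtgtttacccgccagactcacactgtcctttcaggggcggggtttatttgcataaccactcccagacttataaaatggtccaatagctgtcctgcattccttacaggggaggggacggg
*Aen* (chr7:78895927.0-78895956.0, plus strand, within the first exon of a transcript): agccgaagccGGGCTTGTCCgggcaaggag
The windows of *Bbc3*, *Fas* and *Apaf1* held no half-site either. The missing letters say only that this motif is not in these windows, and a match is not a measurement of binding.

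The mitochondrial pathway was represented by *Bax*, *Bbc3*, *Pmaip1* and *Apaf1*, of which 2 rose. *Bax*, which forms the pore in the mitochondrial outer membrane through which cytochrome c leaves, lies on the minus strand of chromosome 7 (GRCm38) from 45461697 to 45466898. It stood at 68.0, 66.8 and 50.8 CPM in *Rpl22*-/- replicates 1, 2 and 3 and at 41.5, 35.0 and 33.5 CPM in *Rpl22*+/+ replicates 1, 2 and 3. The lowest *Rpl22*-/- library, replicate 3, was still above the highest *Rpl22*+/+ library, replicate 1. The means were 61.9 ± 9.59 and 36.7 ± 4.24 CPM (SD, n = 3 each), a fold of 1.68 in the fit with a 95% interval of 1.41 to 2.02 (log2 fold change 0.75, standard error 0.123, adjusted p = 0.00444 by edgeR). The transcripts of *Bax* share 192 exonic bases, 12.2% of its exon length, with *Gm45808*, an overlapping gene on the same strand that has no row of its own in the count table. *Bax* kept its call in all 18 alternatives that gave it a value.

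*Bbc3*, which encodes Puma, a BH3-only protein that frees and activates Bax and Bak, lies on the plus strand of chromosome 7 from 16308393 to 16318205. It had 13.2, 14.9 and 14.1 CPM in the *Rpl22*-/- libraries and 6.45, 6.90 and 7.49 CPM in the *Rpl22*+/+ libraries. Both groups were narrow and well apart, so that the lowest *Rpl22*-/- value was clear of the highest *Rpl22*+/+ value. The mean went from 6.95 ± 0.521 to 14.1 ± 0.865 CPM (SD, n = 3), a fold of 2.03 with a 95% interval of 1.60 to 2.58 (log2 fold change 1.02, standard error 0.163, adjusted p = 0.00435 by edgeR). The reads behind it were 169 to 186 per *Rpl22*-/- library and 72 to 86 per *Rpl22*+/+ library. Its call also held in all 18 alternatives.

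*Apaf1*, the scaffold of the apoptosome that binds cytochrome c and activates caspase-9, lies on the minus strand of chromosome 10 from 90989311 to 91082770. Its level was 66.8, 64.1 and 65.9 CPM in *Rpl22*-/- and 59.8, 60.0 and 73.6 CPM in *Rpl22*+/+ libraries. The *Rpl22*-/- values lay inside the *Rpl22*+/+ range. With 707 to 867 reads per library it was among the deepest of the 10 genes, and the interval of its fold, 0.885 to 1.18, does not reach the fold of *Bax* (log2 fold change 0.029, standard error 0.0967, adjusted p = 0.896 by edgeR). *Pmaip1*, which encodes Noxa, a BH3-only protein that binds Mcl1, was the least expressed. The *Rpl22*-/- libraries held 3, 18 and 26 of its reads and the *Rpl22*+/+ libraries 7, 13 and 1, or 0.234, 1.50 and 1.98 CPM against 0.538, 1.04 and 0.104 CPM. The groups overlapped, since *Rpl22*-/- replicate 1 was below *Rpl22*+/+ replicates 1 and 2. The log2 fold change of 1.06 had a standard error of 0.681 and an interval in fold of 0.764 to 5.67 (adjusted p = 0.387 by edgeR), which takes in both no difference and one as large as that of *Eda2r*. Only 2 of its *Rpl22*-/- libraries and 1 of its *Rpl22*+/+ libraries reached the 0.792 CPM that the filter on low counts asks of 3 libraries.

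The receptors were *Fas*, *Tnfrsf10b* and *Eda2r*, all of the tumor necrosis factor receptor superfamily, of which 1 rose. *Eda2r*, a receptor for the ectodysplasin isoform A2, lies on the minus strand of chromosome X from 97333840 to 97377216 and had the smallest p-value of the 10 genes, the one ranked 4 among all genes tested. It stood at 14.0, 15.4 and 15.0 CPM in *Rpl22*-/- libraries, from 179, 185 and 198 reads. The *Rpl22*+/+ libraries had 4.53, 3.37 and 3.02 CPM, from 59, 42 and 29 reads. All *Rpl22*-/- values were thus over 3 times the highest *Rpl22*+/+ value. The mean was 14.8 ± 0.754 CPM against 3.64 ± 0.793 CPM (SD, n = 3), a fold of 4.02 with a 95% interval of 3.02 to 5.34 (log2 fold change 2.01, standard error 0.194, adjusted p = 7.49e-05 by edgeR). Because the gene is X-linked, the sex of the donors was examined. Of 4 Y-linked genes, all present in every library, *Ddx3y*, *Kdm5d* and *Uty* overlapped between the genotypes, the first at 62.3 to 83.8 CPM in *Rpl22*-/- and 64.8 to 92.3 CPM in *Rpl22*+/+ libraries. *Eif2s3y* was lower in every *Rpl22*-/- library, at 80.2 to 115 against 122 to 130 CPM (log2 fold change -0.38, adjusted p = 0.0514 by edgeR). *Xist*, expressed from the inactive X chromosome, was higher in every *Rpl22*-/- library, at 3.41 to 5.62 against 1.31 to 2.81 CPM (log2 fold change 1.05, adjusted p = 0.0743). The part of these differences in the level of *Eda2r* was not tested.

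*Tnfrsf10b*, the mouse receptor for the death ligand Trail, lies on the plus strand of chromosome 14 from 69767472 to 69784411. It had 14.1, 14.9 and 13.8 CPM in *Rpl22*-/- and 12.4, 9.87 and 11.3 CPM in *Rpl22*+/+ libraries. Every *Rpl22*-/- library was higher, for which 0.1 is the exact two-sided permutation p and the smallest that 3 samples against 3 allow. The same permutation p of 0.1 belongs to *Bax*, *Bbc3*, *Eda2r*, *Phlda3* and *Aen*, and to *Perp* in the other direction. The fold was 1.27 with an unadjusted 95% interval of 1.02 to 1.59, and it did not pass after adjustment (log2 fold change 0.35, standard error 0.152, adjusted p = 0.192 by edgeR). Its transcripts share stretches of at least 100 bases with at least 95% identity with those of 132 other genes, the longest 405 bases with *Gm15574*, so reads in those stretches are uncertain. *Fas*, the receptor for Fas ligand, lies on the plus strand of chromosome 19 from 34290666 to 34327772. It had 4.21, 3.33 and 2.51 CPM in *Rpl22*-/- and 2.61, 3.37 and 3.33 CPM in *Rpl22*+/+ libraries. The highest and the lowest values both belonged to *Rpl22*-/- libraries, replicates 1 and 3. Its log2 fold change was 0.11 with a standard error of 0.291 (adjusted p = 0.861 by edgeR), and the interval in fold ran from 0.705 to 1.66, below the interval of *Eda2r*.

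The other effectors were *Phlda3*, *Perp* and *Aen*, of which 2 rose. *Phlda3*, a pleckstrin homology domain protein that competes with the survival kinase Akt for membrane lipids, lies on the plus strand of chromosome 1 from 135766119 to 135769136. Its reads numbered 98, 187 and 114 in *Rpl22*-/- libraries and 19, 18 and 9 in *Rpl22*+/+ libraries, or 7.64, 15.6 and 8.66 CPM against 1.46, 1.45 and 0.936 CPM. Replicate 2 of *Rpl22*-/- stood well above replicates 1 and 3, and all 3 stood far above the *Rpl22*+/+ libraries. The mean rose from 1.28 ± 0.298 to 10.6 ± 4.31 CPM (SD, n = 3), a fold of 8.08 with a 95% interval of 5.04 to 12.95 (log2 fold change 3.01, standard error 0.321, adjusted p = 1.59e-04 by edgeR). Without *Rpl22*-/- replicate 2 the log2 fold change was 2.64, the lowest of 17 alternatives, all of which kept the call.

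*Aen*, a nuclease that p53 induces and that digests DNA and RNA in dying cells, lies on the plus strand of chromosome 7 from 78895854 to 78911209. It had 82.3, 96.2 and 81.5 CPM in *Rpl22*-/- and 66.0, 67.0 and 58.3 CPM in *Rpl22*+/+ libraries. The groups did not overlap, and the reads numbered 560 to 1156 per library. By the search used for *Tnfrsf10b*, transcripts of *Aen* share such stretches with 17 other genes, the longest 114 bases with *Gm15298*. Those of *Apaf1* share them with 2. Reads in those stretches are uncertain as well. The mean went from 63.8 ± 4.78 to 86.7 ± 8.27 CPM (SD, n = 3), a fold of 1.36 with a 95% interval of 1.18 to 1.56 (log2 fold change 0.44, standard error 0.0954, adjusted p = 0.0168 by edgeR). This was the smallest of the 5 increases and the only one whose call was lost when a library was left out. The adjusted p was 0.0556 without *Rpl22*-/- replicate 2, 0.0561 without *Rpl22*-/- replicate 3, 0.0618 without *Rpl22*+/+ replicate 1 and 0.0825 without *Rpl22*+/+ replicate 3, while the log2 fold change stayed between 0.36 and 0.48 in all 18 alternatives.

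*Perp*, a tetraspan membrane protein also found in desmosomes of epithelia, lies on the plus strand of chromosome 10 from 18845020 to 18857073. It went the other way. It had 0.702, 1.33 and 1.52 CPM in *Rpl22*-/- libraries, from 9, 16 and 20 reads. The *Rpl22*+/+ libraries had 1.61, 2.49 and 2.60 CPM, from 21, 31 and 25 reads. Every *Rpl22*-/- library was below every *Rpl22*+/+ library, but only narrowly, and the adjusted p was 0.194 (edgeR, log2 fold change -0.90, standard error 0.396) and stayed between 0.167 and 0.424 in 17 alternatives. The unadjusted interval of its fold was 0.299 to 0.960. The 6 epithelial genes examined summed to 46.6 to 63.4 CPM in *Rpl22*-/- and 60.1 to 79.5 CPM in *Rpl22*+/+ libraries, with the keratins *Krt5* and *Krt14* at 0 in all libraries, and their part in the level of *Perp* was not tested.

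**Figure D2:**
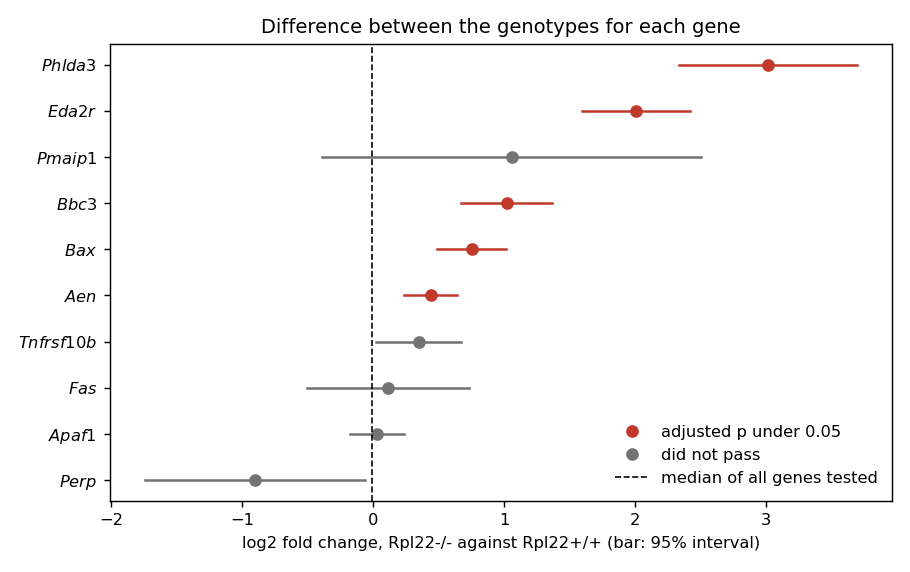
Log2 fold change of each gene, *Rpl22*-/- against *Rpl22*+/+ (n = 3 each), with its 95% interval from edgeR's fit. Red marks the 5 genes with an adjusted p under 0.05, gray the others, and the dashed line the median over all genes tested, -0.0068. The 5 red intervals lie right of the line, from 0.24 (lower end, *Aen*) to 3.69 (upper end, *Phlda3*). Those of *Pmaip1*, *Fas* and *Apaf1* cross it. The intervals are unadjusted, and 2 gray ones also lie clear of the line. They are *Tnfrsf10b*, at 0.024 to 0.67, and *Perp*, at -1.74 to -0.059.

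The 10 genes differed widely in level, which was compared per kilobase of exon because they differ in length. In *Rpl22*+/+ HSCs *Bax* was highest at 23.3 CPM per kilobase, followed by *Aen* at 11.0, *Apaf1* at 7.14, *Bbc3* at 3.27 and *Tnfrsf10b* at 2.06 CPM per kilobase, and the libraries of neighbors in this order did not overlap. Then came *Fas* at 1.51, *Perp* at 1.15, *Phlda3* at 0.821 and *Eda2r* at 0.618 CPM per kilobase. Of these, *Fas*, *Perp* and *Phlda3* each overlapped the next in line. *Pmaip1* was last at 0.206 and did not overlap *Eda2r*. In *Rpl22*-/- HSCs the top 3 were the same, at 39.3, 14.9 and 7.26 CPM per kilobase. *Phlda3* was now the fourth at 6.81 CPM per kilobase and overlapped both *Apaf1* and *Bbc3*, the latter at 6.62. *Eda2r*, at 2.51 CPM per kilobase, overlapped *Tnfrsf10b* at 2.62 and stood above *Fas* at 1.62. *Perp* and *Pmaip1* were lowest, at 0.607 and 0.452 CPM per kilobase, and overlapped.

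**Figure D3:**
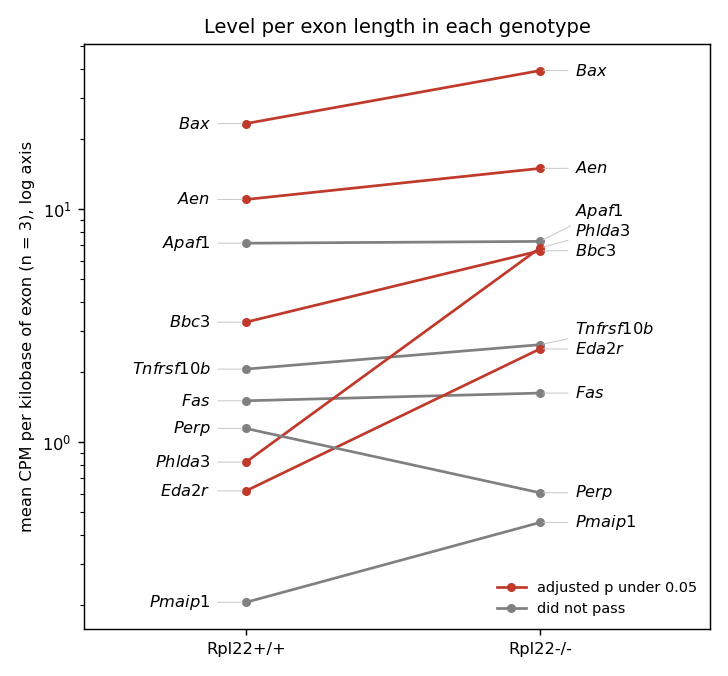
Mean level of each gene per kilobase of exon in *Rpl22*+/+ and *Rpl22*-/- HSCs (n = 3 each, logarithmic axis), with a line for each gene, red where the adjusted p was under 0.05. *Phlda3* and *Eda2r* climb from 0.821 and 0.618 to 6.81 and 2.51 CPM per kilobase and cross the lines of other genes, while *Bax* and *Aen* stay on top in both genotypes.

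Summed over the 10 genes, their reads made up 271, 294 and 256 CPM in *Rpl22*-/- replicates 1, 2 and 3 and 197, 191 and 194 CPM in *Rpl22*+/+ replicates 1, 2 and 3. The difference of the means was 79.8 CPM. *Bax* supplied 31.6% of it and *Aen* 28.7%, while *Eda2r* supplied 14.0% and *Phlda3* 11.7%. The genes with the largest fold changes were thus not those that added the most reads, a sum that also depends on transcript length. *Rpl22*-/- replicate 2 had the highest level of all libraries for 5 of the 10 genes, namely *Bbc3*, *Tnfrsf10b*, *Eda2r*, *Phlda3* and *Aen*, and *Rpl22*+/+ replicate 3, the library with the fewest reads, had the lowest for 5, namely *Bax*, *Pmaip1*, *Eda2r*, *Phlda3* and *Aen*. *Apaf1* and *Perp* were highest in that same *Rpl22*+/+ replicate 3, so its level was not low throughout.

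Among genes upstream of these targets, 20 regulators of p53 were tested and 1 passed, beside 5.57% of all genes tested. The 1 gene was *Mdm4*, an inhibitor of p53, which fell by 0.39 on the log2 scale (standard error 0.109, adjusted p = 0.0484 by edgeR). It passed in 9 of 18 alternatives and was lost when any 1 library other than *Rpl22*-/- replicate 1 was left out, with adjusted p between 0.0561 and 0.153. *Trp53*, the gene of p53 itself, had 250 ± 21.2 CPM in *Rpl22*-/- and 211 ± 4.52 CPM in *Rpl22*+/+ HSCs (SD, n = 3), a log2 fold change of 0.25 (adjusted p = 0.104 by edgeR, and 0.0288 without *Rpl22*-/- replicate 1). *Mdm2*, which is both the ligase that degrades p53 and a p53 target, had 92.2 ± 8.03 and 95.2 ± 5.87 CPM (log2 fold change -0.045, adjusted p = 0.818). DESeq2 called *Mdm4* lower and *Rpl11*, a ribosomal protein that binds Mdm2, higher, with an adjusted p for *Rpl11* of 0.0138 against 0.0789 by edgeR (log2 fold change 0.29). At an unadjusted p under 0.05 by edgeR, 3 regulators were higher and 4 lower, and the median of the 20 was -0.068.

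Targets of p53 that act in arrest and stress were read beside those of cell death. Of 20 tested, 3 rose and 0 fell by edgeR and by DESeq2, and 4 were higher and 0 lower at an unadjusted p under 0.05. *Cdkn1a*, which encodes the cell cycle inhibitor p21, had 12.7 ± 3.06 CPM in *Rpl22*-/- and 2.20 ± 0.467 CPM in *Rpl22*+/+ HSCs (SD, n = 3), a log2 fold change of 2.54 (adjusted p = 7.56e-05 by edgeR). *Zmat3*, an RNA-binding protein, and *Ccng1*, a cyclin that feeds back on p53, had log2 fold changes of 2.40 and 0.57 (adjusted p = 8.05e-08 and 0.00444). The median of these 20 was 0.0050, close to that of all genes. Of 14 other p53 targets of apoptosis tested, 0 passed by edgeR, DESeq2 or limma-voom, and 4 were higher and 0 lower at an unadjusted p under 0.05. The smallest p among them was that of *Lrdd*, the death domain protein also named Pidd1, with a log2 fold change of 0.28 (adjusted p = 0.0821 by edgeR), and their median was 0.15.

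Downstream of the receptors, 13 ligands, adaptors and caspases were tested and 0 passed by edgeR, DESeq2 or limma-voom, with 1 higher and 0 lower at an unadjusted p under 0.05. That 1 gene was *Faim*, an inhibitor of Fas signaling (log2 fold change 0.41, adjusted p = 0.114 by edgeR). Among 17 other receptors of the superfamily 0 passed by any of the 3 tools, with 3 higher and 1 lower at an unadjusted p under 0.05, led by *Tnfrsf21* (log2 fold change 0.28, adjusted p = 0.0987), which passed with no filter and without *Rpl22*-/- replicate 1 and whose adjusted p ran from 0.0229 to 0.353 over 18 alternatives. Of 17 genes of the apoptosome, the effector caspases and their inhibitors, *Htra2*, a mitochondrial protease that antagonizes caspase inhibitors, rose and *Xiap*, a caspase inhibitor, fell, with log2 fold changes of 0.31 and -0.30 (adjusted p = 0.0429 and 0.0394 by edgeR). DESeq2 called *Birc2* and *Casp2* lower as well. Both *Htra2* and *Xiap* lost the call when any 1 library other than *Rpl22*-/- replicate 1 was left out, with adjusted p of 0.0529 to 0.209 and 0.0768 to 0.162. After correction for length or GC content, or for both with the replicate number as a term, neither passed, and the log2 fold change of *Xiap* came as near to 0 as -0.058. *Htra2* also lost its call with scaling by library size alone. The 4 paralogs of *Phlda3* and *Aen* tested, *Phlda1*, *Phlda2*, *Isg20* and *Isg20l2*, had 0 calls by any of the 3 tools and 1 at an unadjusted p under 0.05, *Isg20* with a log2 fold change of 0.33 (adjusted p = 0.163).

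In the Bcl2 family, whose members *Bbc3* and *Pmaip1* act on, 14 other genes were tested, of which 2 rose and 1 fell. *Bak1*, the second pore former beside *Bax*, had 78.0 ± 12.6 CPM in *Rpl22*-/- and 51.4 ± 1.81 CPM in *Rpl22*+/+ HSCs (SD, n = 3), a log2 fold change of 0.60 (adjusted p = 0.00792 by edgeR, and 0.0591 without *Rpl22*-/- replicate 3). *Bcl2l1*, whose main product Bcl-xL restrains Bax and Bak, rose by 0.46 on the log2 scale (adjusted p = 0.0470) and passed in 9 of 18 alternatives. The call was lost when any 1 library other than *Rpl22*-/- replicate 1 was left out (0.117 to 0.178), with limma-voom, with library size alone and after correction for GC content, with or without length and the replicate term, and the log2 fold change was lowest, at 0.30, without *Rpl22*-/- replicate 2. *Bmf*, a BH3-only protein, fell by 1.46 on the log2 scale (adjusted p = 0.0178) and was lost without *Rpl22*-/- replicate 2 or 3 or *Rpl22*+/+ replicate 2 or 3 (0.0567 to 0.0916). DESeq2 also called *Bcl2l12* higher (adjusted p = 0.0385, against 0.0511 by edgeR), and limma-voom called *Bak1* and *Bmf* alone. At an unadjusted p under 0.05 by edgeR, 4 were higher and 2 lower, and the family's median was 0.0051.

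**Figure D4:**
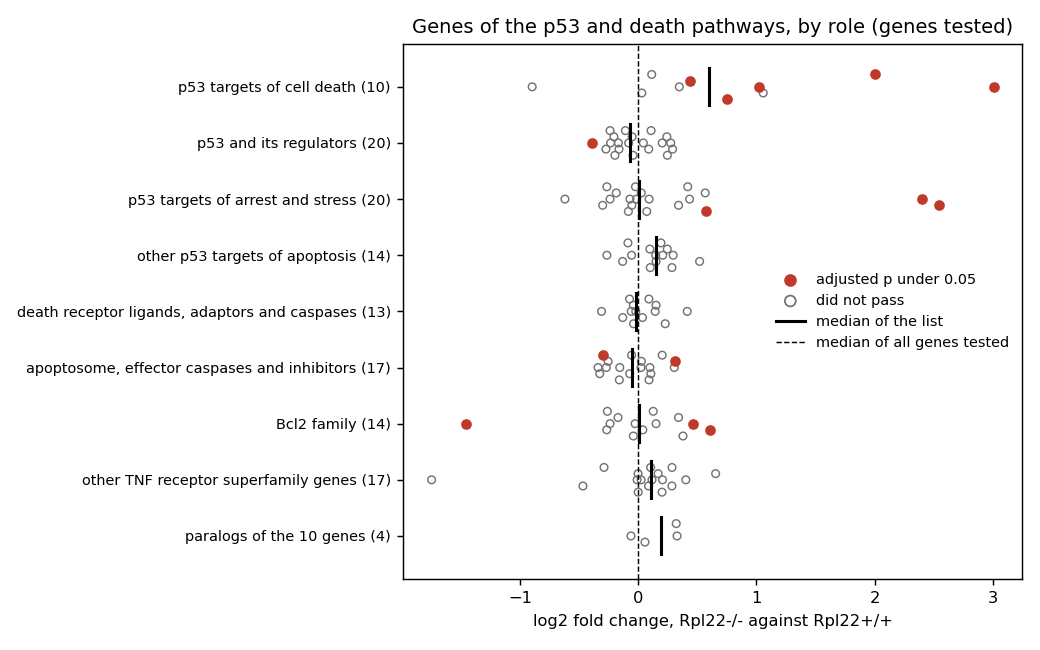
Log2 fold change, *Rpl22*-/- against *Rpl22*+/+ (n = 3 each), of every tested gene in each list of the p53 and death pathways, with the number of genes tested in parentheses. Red points passed an adjusted p of 0.05, solid bars are the medians of the lists and the dashed line is that of all genes tested. The p53 targets of cell death have 5 red points and a median of 0.60, and the other lists have at most 3 red points and medians between -0.068 and 0.19.

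The 5 tested genes outside the 10 whose log2 CPM over the 6 libraries went most closely with that of *Eda2r* were *Diexf*, *Cnot3*, *Ndufb8*, *B2m* and *Arhgef16*, with Pearson's r of 0.999, 0.997, 0.995, 0.995 and 0.994. The 6 points share the genotype difference of *Eda2r*, so these values are a description of which genes parted the libraries in the same order and proportion. Their own log2 fold changes ranged from 0.13 for *Diexf* (adjusted p = 0.408 by edgeR) to 2.52 for *Arhgef16* (adjusted p = 1.11e-04), so a close likeness went with small as well as large differences.

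The values of the 10 genes were computed again under 18 other ways of scaling, filtering, testing or leaving out a library. *Bax*, *Bbc3*, *Eda2r* and *Phlda3* passed in every one in which they were tested, with log2 fold changes of 0.56 to 0.88, 0.84 to 1.07, 1.90 to 2.20 and 2.64 to 3.21. The lowest values of *Bax* and *Bbc3* came after correction for gene length and GC content with the replicate number as a term. *Tnfrsf10b*, *Pmaip1*, *Fas*, *Apaf1* and *Perp* passed in 0 of theirs, DESeq2 and limma-voom included. *Pmaip1* depended most on single libraries, with a log2 fold change of 0.53 without *Rpl22*-/- replicate 3 and 1.81 without *Rpl22*+/+ replicate 2.

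**Figure D5:**
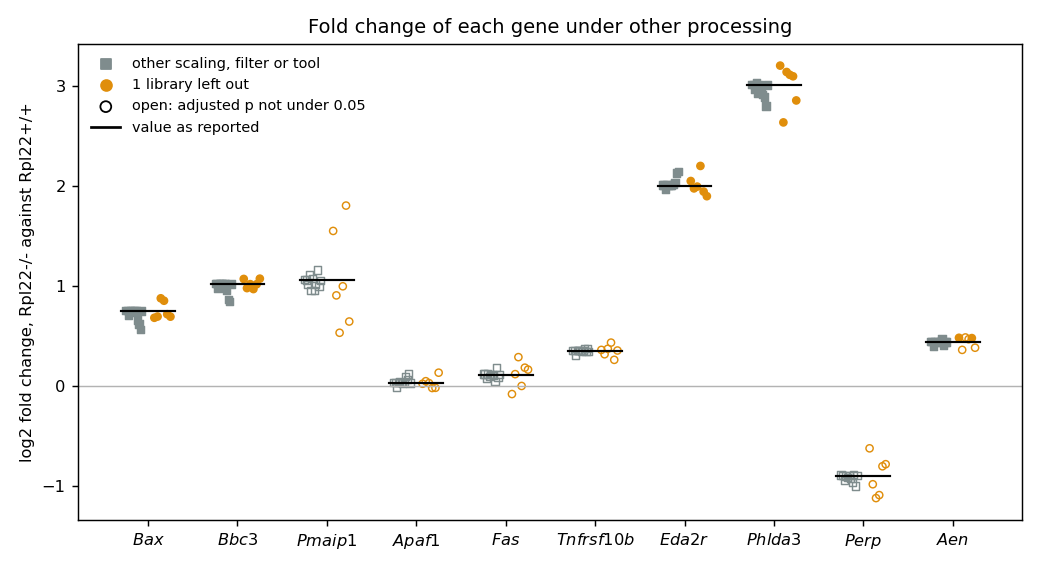
Log2 fold change of each gene, *Rpl22*-/- against *Rpl22*+/+, under other scalings, filters and tools (squares) and with 1 library left out (circles), with a black line at the value as reported. Filled symbols have an adjusted p under 0.05. Symbols of *Eda2r* and *Phlda3* stay filled and near 2.01 and 3.01, *Aen* has 4 open circles, and the circles of *Pmaip1* spread from 0.53 to 1.81.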

How the data were processed

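RNA-seq was available for 3 *Rpl22*-/- and 3 *Rpl22*+/+ HSC samples, grouped by their titles. The authors checked reads with FastQC, aligned them to mm10 with TopHat2 2.1.1 and deposited HTSeq counts per gene, without normalization. The strand setting and annotation of the counting are not given in the sources used here. The 5 HTSeq rows of unassigned reads held 58.6% to 60.9% of each library and were left out. The number of unused per-sample columns was 0.

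From the counts, filterByExpr (minimum count 10), TMM and the quasi-likelihood test of edgeR 4.0.16 (R 4.3.3) compared the genotypes over all genes, with Benjamini-Hochberg adjustment and a threshold of 0.05. Standard errors were taken as the size of the log2 fold change divided by the root of its F statistic, and 95% intervals use the t distribution with the fit's degrees of freedom. Precision rests on 3 values per genotype. The study's test, DESeq2 (here 1.42.0), and limma-voom (limma 3.58.1) were alternatives, beside other scalings, filters, an unadjusted p of 0.001, removal of length and GC trends (lowess span 0.3), autosomal genes alone, a replicate term and each library left out. Positions and exon lengths came from GENCODE M21 (GRCm38), which matched 29042 symbols directly and 1849 by an older symbol, transcript similarity from BLAST, promoters from RefSeq. The fit was tested on simulated counts with 200 genes changed. Those counts had the same spread setting for every gene and changes in well-covered genes only. They therefore do not measure the error rate in these data. Python 3.11.15, pandas 2.3.3, scipy 1.17.1 and matplotlib 3.10.9 were used.

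The 10 genes and the pathway and marker lists were chosen with earlier results of these data known. The pathway lists share a few genes, so their counts and medians are not independent and cannot be added. Genes named are the 10, every gene of a pathway list past the threshold or else the one of smallest p, *Trp53*, *Mdm2* and *Cdkn1a*, called or absent marker genes, and the 5 most like *Eda2r* by Pearson's r. *Birc2*, *Casp2*, *Rpl11*, *Bcl2l12*, *Phlda1*, *Phlda2*, *Isg20l2*, the sex-linked genes and genes of shared sequence were named after their values were seen.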

Additional observations from a re-analysis of the deposited data

How the results depend on the processing

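The number of the 10 genes past the threshold was 4 or 5 in all 20 alternatives, and their median log2 fold change stayed between 0.44 and 0.66. With at least 10 counts in every sample, *Phlda3*, *Pmaip1* and *Perp* were not tested, and with autosomal genes alone *Eda2r* was not. The number of all genes past the threshold, 780, was 1422 with no filter, 510 with the GC trend removed and 468 at an unadjusted p under 0.001, and 127 to 1720 with 1 library left out, namely 127, 370, 206, 259 and 241 without *Rpl22*-/- replicate 3 or 2 or *Rpl22*+/+ replicate 1, 2 or 3 and 1720 without *Rpl22*-/- replicate 1. Under scaling by library size alone, 850 genes passed, with 43.4% higher, and the GC trend removed left 68.2% higher, against 58.8%. With 1 library left out, the log2 fold change ran from -0.083 to 0.29 for *Fas* and from -0.022 to 0.13 for *Apaf1*. That of *Fas* turned to -0.083 without *Rpl22*-/- replicate 1 and -0.0019 without *Rpl22*+/+ replicate 1, and that of *Apaf1* to -0.022 and -0.021 without *Rpl22*+/+ replicates 1 and 2 and -0.016 with library size alone, none of them past the threshold, and the cause was not tested. With the replicate number as a block, 904 genes and the same 5 of the 10 passed, and the same-numbered samples did not deviate together (correlations -0.103, 0.0549 and 0.0448), nor did every sample correlate best with its own number. *Pmaip1* and *Perp* rest on 1 to 31 reads per library, and how much of their error is counting and how much is spread between samples was not tested.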
